A study of Arabidopsis thaliana with 7 samples.

Results

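The sites described here are the places in the Arabidopsis genome where HY5-YFP, the transcription factor HY5 fused to the yellow fluorescent protein, was pulled down from plants kept in red light. They were chosen by joining the peaks of the 3 red light libraries where peaks shared at least 1 bp, and by keeping each joined site that had a peak in at least 2 of the 3 lists. Of 6522 joined sites, 5043 (77.3%) were kept, and these are called consensus sites below. The whole plants were 10 days old and of the Wassilevskija (Ws) accession. They carried the T-DNA insertion allele hy5-ks50 and expressed HY5-YFP. After entrainment to 12:12 cycles of light and darkness they had spent 52 hours in red light at 15 µmol per square metre and second. The control was 1 mock library, made from the pooled samples of plants of the same genotype kept in blue light, with beads that lack the antibody. The hy5-ks50 allele and the fusion were therefore shared by the red light and the mock samples, and plants lacking the fusion were not examined. The labels do not name the promoter that drives the fusion or the number of transgenic lines.

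HY5 is a bZIP transcription factor that binds DNA elements with an ACGT core, among them the G-box. It promotes the light-dependent development of seedlings, such as shorter hypocotyls, greening and anthocyanin synthesis. In darkness the COP1 and SPA proteins mark it for degradation, and in light the phytochromes and cryptochromes stop them from doing so. HY5 is held to lack a strong activation domain of its own and acts with partners such as its relative HYH and B-box proteins. The series title places HY5 between light signals and the circadian clock, so clock genes are given in full here.

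The red light libraries held 10.6, 11.5 and 11.9 M tags (1 M is 1e6) in replicates 1, 2 and 3, and their lists held 4027, 5672 and 5441 peaks. Replicate 1 stood apart in its window: its peaks were 549 bp wide, against 307 and 313 bp by the coordinates of the other lists, after a fragment length of 548 bp was estimated for it against 226 and 210 bp. Its tag numbers are thus sums over a wider stretch, and values are given per replicate throughout. All tag values are tags in the peak window per 10 M tags of the library, and mock values are tags of the mock library in the same window. The mock held 6.84 M tags, as derived from the lists. The caller tested 16857 candidate peaks in replicate 1, 23218 in replicate 2 and 23131 in replicate 3, and removed 58.4%, 58.9% and 60.0% of them for too small an excess over the mock. Because every listed peak had to exceed the mock at least 4-fold and there was 1 mock library, the folds over the mock below are descriptions with no test. The design text calls the replicates biological but does not say whether they were grown or harvested together.

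A peak was present in all 3 lists at 3575 sites (54.8%), in 2 lists at 1468 (22.5%) and in 1 list at 1479 (22.7%). Replicates 2 and 3 alone shared 1197 sites, while replicate 1 shared 155 sites with replicate 2 alone and 116 with replicate 3 alone. Of the peaks of replicates 1, 2 and 3, 95.5%, 86.9% and 89.8% fell in consensus sites. Peaks just outside the rule were low: sites of 1 list had medians of 190 tags in replicate 1, 114 in replicate 2 and 114 in replicate 3. Sites of 2 lists, just inside it, had medians of 207, 132 and 133 tags. Sites of 3 lists had medians of 318, 220 and 220 tags in replicates 1, 2 and 3.

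At the 3575 sites of all 3 lists the tag numbers of the replicates lay close together. Replicates 2 and 3 differed by less than 0.5 on the log2 scale at 99.4% of these sites and by more than 1 at 0 of them. Across the sites, which are not independent replicates and share libraries, Pearson's r of the log2 tags was 0.974 between replicates 1 and 2, 0.973 between replicates 1 and 3, and 0.978 between replicates 2 and 3. Replicate 1, with its wider window, was higher than replicate 2 by a median of 0.54 (log2), and replicate 2 differed from replicate 3 by a median of -0.0018. The centres of the peaks differed by a median of 17 bp between replicates 2 and 3. The chi-square per degree of freedom of the tags was 2.67, 2.80 and 1.73 between replicates 1 and 2, 1 and 3, and 2 and 3. These values lay above the counting noise of independent tags, which PCR reads need not be. The pairs with replicate 1 set windows of unlike width against each other. The values do not show whether the libraries are independent, and they were kept as 3 replicates as labelled.

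Consensus sites lay mostly at the ends of genes. Of the 5043 sites, 2144 (42.5%) had their centre inside a protein-coding gene and 2899 (57.5%) between genes, and the median distance to the nearest gene end was 154 bp. Within 500 bp of a gene end, on either side, lay 75.4% of the sites. Sites within 500 bp outside a gene end numbered 1952, or 38.7% of the sites, while such positions are 13.2% of the genome, a ratio of 2.92. Sites inside a gene within 500 bp of an end numbered 1849 (36.7% against 22.1% of the genome, a ratio of 1.66). The interior of genes more than 500 bp from an end held 295 sites (5.85% against 32.0%, a ratio of 0.183). Intergenic positions more than 1500 bp from any gene end held 355 sites (7.04% against 21.0%, a ratio of 0.335), and those at 500 to 1500 bp held 592, near their share of the genome (11.7% against 11.6%). The gene table gives no strand, so the start and the end of a gene cannot be told apart. Median tags differed little among these classes, from 199 to 233, and the few sites in gene interiors had the highest median.

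**Figure D1:**
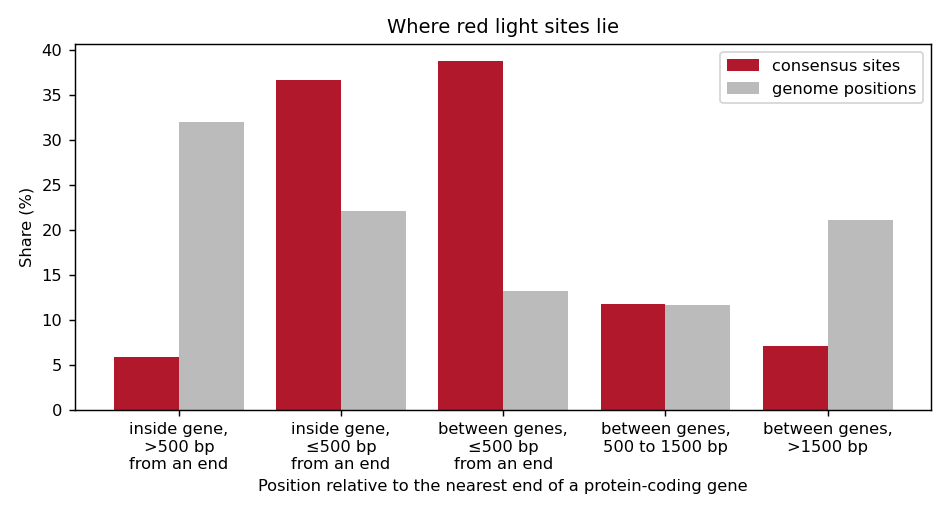
Share of the 5043 consensus sites (red bars) and of genome positions (grey bars), in percent, by position relative to the nearest end of a protein-coding gene. The sites exceed the genome's share within 500 bp of a gene end on either side and fall below it in gene interiors and more than 1500 bp from genes.

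The map followed the density of genes along the chromosomes. Chromosomes 1 to 5 held 1346, 767, 981, 827 and 1122 sites, or 38.9 to 44.5 per Mb and 17.7 to 19.8 per 100 protein-coding genes. Over 121 bins of 1 Mb the number of sites ranged from 0 to 81 with a median of 46, and its Spearman correlation with the number of protein-coding genes was 0.831, given as a description over bins of the same libraries. The widest stretch without a site was 1855 kb on chromosome 3, between 12454231 and 14308931 (TAIR10), and the next was 1575 kb on chromosome 1, between 14305864 and 15880230. These stretches held few protein-coding genes, 29.6 and 10.2 per Mb, against 233 and 235 per Mb over the chromosomes. Pseudogenes had a site in 114 of 3917 cases (2.91%), and microRNA genes in 48 of 326 (14.7%), under the same rule that gave 26.4% for protein-coding genes. The stretch searched under this rule is shorter for a short gene, and gene lengths were not matched. Neighbouring sites stood a median of 14.3 kb apart, and 112 of 5038 neighbouring pairs (2.22%) had centres within 1500 bp of each other.

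The highest site of every red light library lay at HY5 itself (AT5G11260, chr5:3594787-3595335, TAIR10), with its centre inside the gene and within 500 bp of an end. It held 18858 tags in replicate 1, 10822 in replicate 2 and 10863 in replicate 3. These values were 5.02, 4.67 and 4.95 times those of the next highest site of each library. The mock was high at the same place: 812, 648 and 653 mock tags lay in the windows of the 3 replicates, which is 25.9, 36.9 and 36.5 times the genome average for such windows. Over the mock the fold was 15.9, 11.4 and 11.4, so the site that led in tags by far did not lead in fold. DNA from the hy5-ks50 locus and from the transgene cannot be told apart there.

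After HY5, the sites beside AT1G01335, EDD1, AT3G22440 and FC1 were the highest. The site between AT1G01335 and CNGC10, an ion channel gene, held 3696, 2215 and 2166 tags in replicates 1, 2 and 3 (chr1:131052-131600). At EDD1, which encodes a glycyl-tRNA synthetase of organelles (chr3:17771059-17771607), there were 3759, 2100 and 2111 tags. Beside AT3G22440 (chr3:7959416-7959964) there were 3119, 2318 and 2196. FC1, a ferrochelatase gene of haem synthesis (chr5:9094894-9095442), had 3092, 1995 and 1901 tags, with the centre of the site at 500 to 1500 bp from the gene. All 4 sites lay between genes. Their folds over the mock were 16.1 to 19.4 in replicate 1 and 11.4 to 15.9 in replicates 2 and 3.

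Several genes of growth, stress and light responses were among the other sites of the 20 highest. GSTU15, a glutathione transferase gene, held 2944, 1634 and 1594 tags in replicates 1, 2 and 3. RPT2, which encodes a protein of phototropin signalling, held 2432, 1498 and 1443. CUC1, a NAC factor of organ boundaries, held 2427, 1525 and 1485 tags. At DDB2, which encodes a protein that recognises ultraviolet damage in DNA, there were 2245, 1396 and 1318, and at SFR2, a gene of freezing tolerance, 2292, 1502 and 1424. The site between SIG5, a plastid sigma factor gene, and AT5G24130 held 2227, 1563 and 1521. AFP3, of a family that binds the bZIP factor ABI5, was the nearest gene of a site that lay 2888 bp away and held 2412, 1680 and 1563 tags. ATL5, a RING finger gene, had 2331, 1459 and 1683. The remaining sites of the 20 had AT2G46420 (beside CPC, a MYB gene of epidermal cell fate), AT5G02970, AT1G48840, DAW1 (beside WOX13), AT1G19500, AT2G26360 (beside PEX10) and AT4G14900 as their nearest gene, with 1445 to 1832 tags in replicates 2 and 3. Of the 20 sites, 9 lay between genes within 500 bp of an end, 6 inside a gene within 500 bp of an end, 4 at 500 to 1500 bp and 1 farther out. Of these 20 sites, 19 were also among the 20 highest of each library alone.

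**Figure D2:**
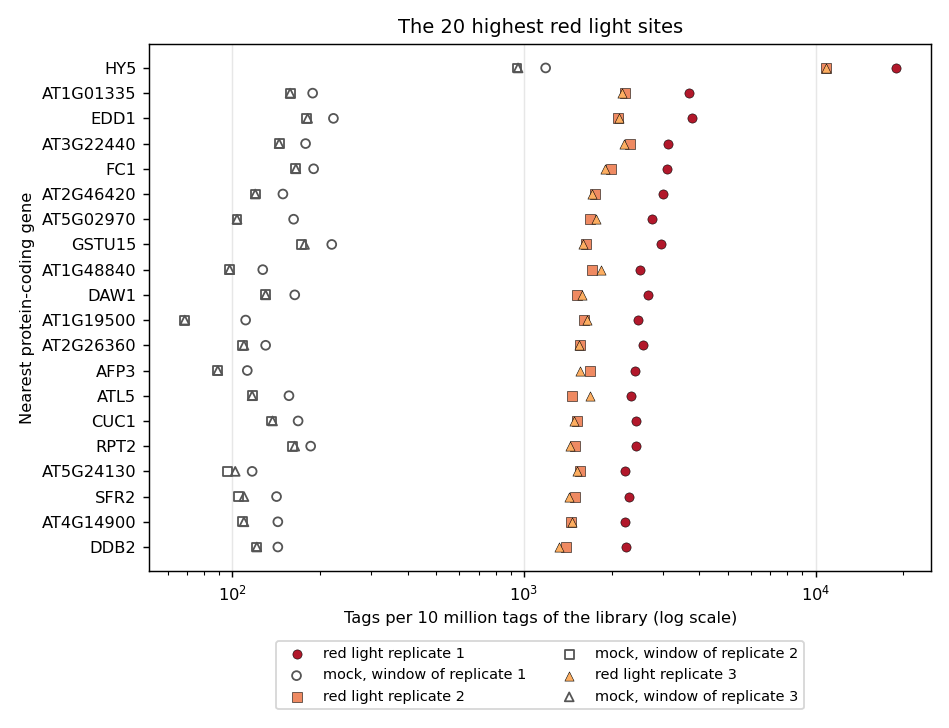
Tags per 10 M tags (log axis) at the 20 highest consensus sites, named by their nearest protein-coding gene, in red light replicates 1 to 3 (filled) and in the mock library over the same windows (open). HY5 lies far to the right of the other 19 in red light and in the mock, and in every row the red light points lie to the right of the mock points, with replicate 1 rightmost.

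Binding was spread over many sites. The highest site took 1.19%, 0.833% and 0.854% of all tags in peaks in replicates 1, 2 and 3. The 100 highest sites took 12.5%, 9.78% and 9.99%, and the 1000 highest 49.8%, 41.2% and 42.0%. All consensus sites together held 15.5%, 12.1% and 12.1% of the tags of the library. The median site held 305, 187 and 189 tags, or 55.5, 61.0 and 60.5 per 100 bp of window. At the 3575 sites of all 3 lists the medians were 57.9, 71.7 and 70.2 per 100 bp, so per base replicate 1 was lower.

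**Figure D3:**
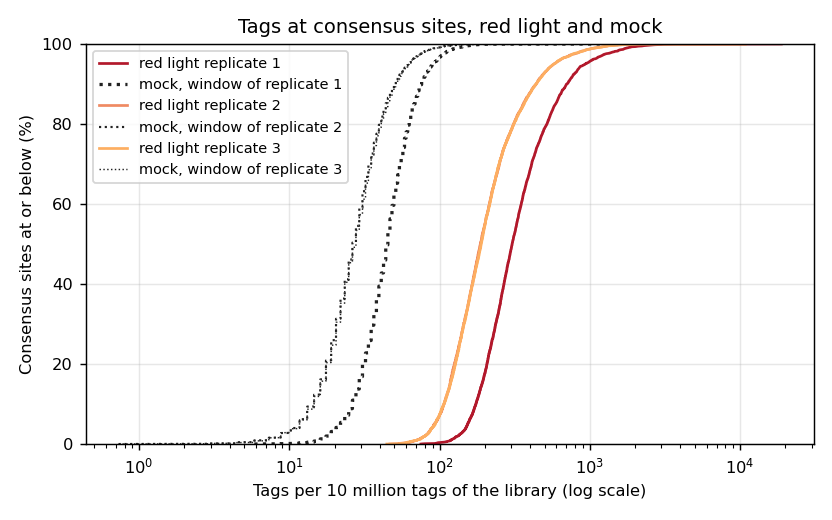
Cumulative share of consensus sites, in percent, against tags per 10 M tags (log axis) in the red light libraries (solid lines) and in the mock over the same windows (dotted lines). The lines of replicates 2 and 3 coincide with a median near 190 tags, replicate 1 is shifted to a median of 305, and the mock medians are 45.3 in the windows of replicate 1 and 26.3 and 27.8 in those of replicates 2 and 3.

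Set against the mock, the median consensus site was 6.87-fold higher in replicate 1, 6.76-fold in replicate 2 and 6.73-fold in replicate 3. Here the fold is the tags per library total over the mock tags plus 1 per mock total. At least 8-fold excess was found at 37.1%, 35.6% and 34.4% of the sites, and at least 20-fold at 26, 58 and 60 sites. The mock itself was near its genome average at the median site, with 31, 18 and 19 tags per window, 0.988, 1.03 and 1.06 times the average. It was not flat across the sites. The 3575 sites of all lists were put in 5 groups of 715 by mean red light tags. From the lowest to the highest group the median mock tags rose from 0.669 to 1.59 times the genome average in replicate 1 windows, from 0.741 to 2.05 in those of replicate 2 and from 0.727 to 2.07 in those of replicate 3. Over the same groups the fold over the mock rose as well, from 5.31 to 10.7, from 5.73 to 10.1 and from 5.75 to 10.1. The fold has the red light tags that formed the groups as its numerator, and the required 4-fold excess limits the mock tags a low site can hold, so both rises are in part set by this choice and are a description. The mock came from blue light plants that expressed the fusion, and what raised its tags at the highest sites was not tested.

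**Figure D4:**
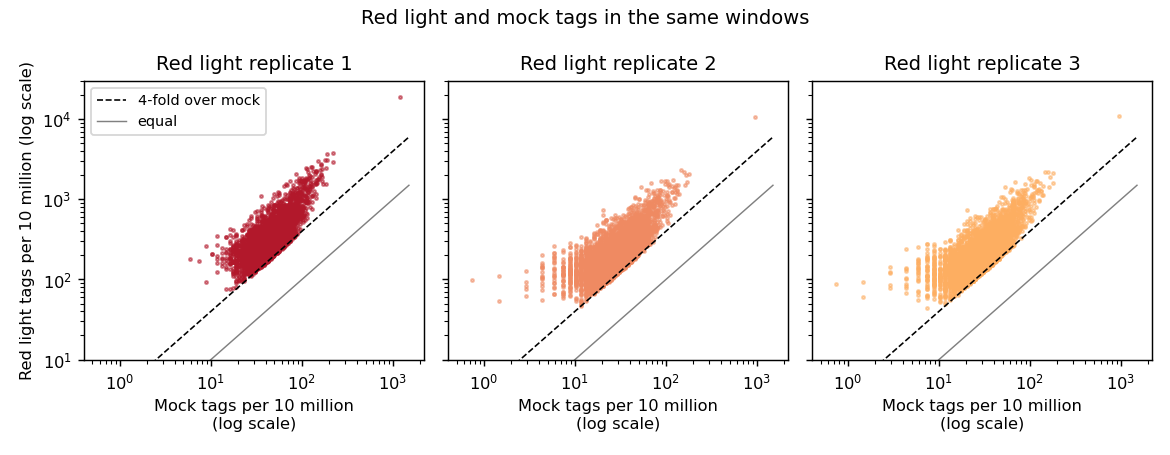
Red light tags against mock tags per 10 M tags in the same window, both on log axes, 1 point per consensus site with a peak in that replicate. No pseudocount was added here, so the points lie on or above the dashed line of 4-fold excess, which the peak caller required. They rise together, and the point at the upper right is HY5.

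Tags in the wide windows of replicate 1 stood in another proportion to the narrow ones in the mock than in red light. These windows were 1.79 times as wide as those of replicate 2, and at the median site of all 3 lists they held 1.48 times the mock tags and 1.45 times the red light tags per 10 M. At the 20 highest sites the ratios were 1.25 for the mock and 1.60 for red light. At the 1000 lowest they were 1.60 for the mock and 1.45 for red light. The mock ratio sets 1 library in both windows, while the red light ratio sets replicate 1 against replicate 2, so for red light window and library cannot be told apart. At 19 of the 20 highest and 80 of the 100 highest sites the fold of replicate 1 exceeded those of replicates 2 and 3, and at 484 of the 1000 lowest it was below both. The groups were ranked by mean red light tags, to which replicate 1 gave the most at the median site. The contrasts between the highest and lowest groups are thus in part set by the ranking. The same counts were not taken over all sites of all 3 lists. Across sites, Spearman's correlation of the fold was 0.904 between replicates 2 and 3 but 0.797 and 0.793 between replicate 1 and each of them.

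Among the 3575 sites of all 3 lists, the highest mean folds over the mock belonged to sites with few mock tags. At OXS2, which encodes a zinc finger protein of stress responses (chr2:17489799-17490347), the red light tags were 1090, 729 and 737 and the mock tags 24, 14 and 14, which gives folds of 29.8, 33.2 and 33.6. Next came AT2G32150 with folds of 17.0, 34.8 and 41.3 over 9, 3 and 3 mock tags. Fes1A, a gene of the HSP70 chaperone system, had folds of 24.3, 35.6 and 31.8 over 11, 4 and 5 mock tags. AT3G62560 and AT1G50450 completed the 5 highest, with 4, 2 and 2 and with 12, 5 and 5 mock tags. Apart from OXS2, these sites had at most 279 tags in replicates 2 and 3, and a few mock tags more or fewer would move their folds. The 5 sites of all 3 lists with the lowest fold, at AT3G45190, AT4G22310, WRKY27, DFB and RPE, had folds of 3.87 to 4.23 and lay at the threshold. The most mock tags, after HY5, were found at EDD1 (152, 123 and 124), GSTU15 (150, 118 and 121), FC1 (130, 113 and 113) and RPT2 (127, 110 and 112), all of them among the 20 highest red light sites. A listed site had to exceed the mock 4-fold, so their height in red light is in part set by that filter.

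Among the sites of all 3 lists, replicates 2 and 3 differed most at AT5MAT, an anthocyanin malonyltransferase gene, with 67.6 against 119 tags, a log2 difference of -0.81. VHA-A2 had 68.5 against 111 tags, AT2G40800 87.5 against 136 and AT5G61970 153 against 238. AT5G57345 went the other way, with 149 against 92.5. These were low sites, and the mock tags of the 2 windows were equal or differed by 1.

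A gene was counted as having a site when the centre of a consensus site lay from 1500 bp outside to 500 bp inside either of its ends. By this rule 7238 of 27444 protein-coding genes (26.4%) had a site, and 5347 (19.5%) had one called in all 3 lists. A gene was found for 4513 sites (89.5%), and 2736 sites (54.3%) had more than 1, so a site shared by neighbours counts for each. The 10 lists of light, clock, pigment, hormone, cold and nutrient genes had a site at 83 of 149 genes (55.7%, against the 26.4% of all protein-coding genes). The 3 control lists of housekeeping, floral and seed genes had one at 11 of 32 (34.4%), so the controls, too, lay above the share of all genes. The lists were written with earlier results of these data known. Their shares, here and below, may in part be set by that choice and are a description. When an 8-fold excess over the mock was required of each peak, the shares were 25.5% of the 10 lists, 21.9% of the controls and 9.85% of all protein-coding genes. The median of a gene's highest site was 213 tags (mean of the replicates with a peak) over all genes with a site, 303 over the 10 lists and 257 over the controls.

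**Figure D5:**
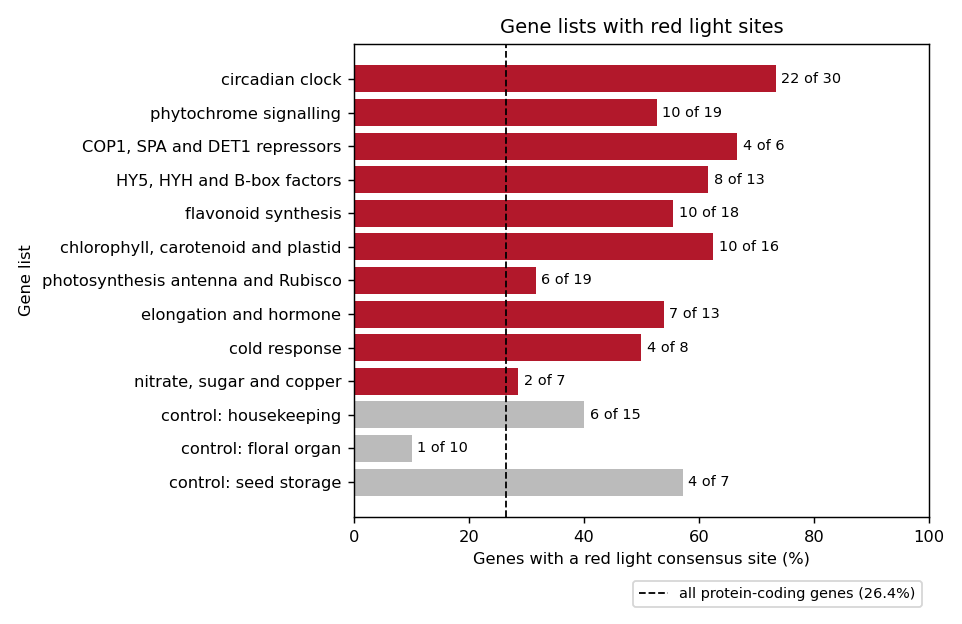
Percent of the genes of each list with a red light consensus site, with the number of genes beside each bar; red bars are the 10 lists of light, clock, pigment, hormone, cold and nutrient genes and grey bars the 3 control lists. The dashed line marks the 26.4% of all protein-coding genes, and the floral organ genes are the 1 list below it. The lists were written with earlier results of these data known.

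The circadian clock list had a site at 22 of 30 genes (73.3%, against 26.4% of all protein-coding genes), and 19 of these sites were called in all 3 libraries. The median of the highest sites was 342 tags. Clock genes without a consensus site were ZTL, RVE6 (AT5G52660), RVE7, RVE8, LNK2, CHE, LWD1 and CDF1, of which RVE8 and LNK2 had a peak in 1 list. CHE, a TCP factor, missed the window by 1 bp, with its nearest site 1501 bp away, and that of LNK2 lay 1967 bp away.

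Among the morning genes, LHY carried the higher site in tags. LHY and CCA1 encode MYB factors that repress evening genes. LHY held 502, 390 and 386 tags in replicates 1, 2 and 3 over 52, 36 and 38 mock tags (chr1:37731-38279), and CCA1 held 304, 191 and 212 over 24, 19 and 20 (chr2:19245113-19245661). The ranges of the tags did not overlap. In fold over the mock LHY was not ahead throughout, with 6.48, 7.21 and 6.77 against 8.31, 6.52 and 6.90 at CCA1. Their relatives of the REVEILLE family had sites lower in tags. RVE1, which links the clock to auxin, held 227, 166 and 167 tags and RVE4 held 218, 174 and 183. The folds of RVE1, at 7.75, 11.4 and 8.81, exceeded those of LHY, and those of RVE4, at 4.97, 4.77 and 5.43, lay below them. RVE2 had no peak in replicate 1 and 123 and 126 tags in replicates 2 and 3.

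Each pseudo-response regulator, a family of repressors that follow CCA1 and LHY through the day, had a site. PRR9, the earliest of them, held 621, 507 and 533 tags over 22, 14 and 14 mock tags (chr2:19232169-19232717), which gives folds of 18.5, 23.1 and 24.3. TOC1, the evening member, held 606, 439 and 423 over 31, 24 and 23 (chr5:24674645-24675193). PRR7 held 473, 297 and 328, and PRR5 held 201, 179 and 145. PRR3 had no peak in replicate 1 and 171 and 133 tags in the others. By tags, within each replicate with a peak, PRR9 lay above TOC1, TOC1 above PRR7, PRR7 above PRR5 and PRR5 above PRR3. The ranges over replicates of PRR9 and TOC1, of TOC1 and PRR7, and of PRR5 and PRR3 overlapped. The mock counted 42 tags in the wide window of PRR7 and 10 and 12 in the narrow ones, so its fold was 7.52 in replicate 1 and 18.5 and 17.3 in replicates 2 and 3. TOC1 had folds of 12.9, 12.0 and 12.1.

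Genes of the evening complex, the repressor made of LUX, ELF3 and ELF4, had sites of unequal height. LUX, its DNA-binding subunit, held 861, 590 and 565 tags in replicates 1, 2 and 3 (chr3:17182557-17183105), and its homologue BOA held 850, 569 and 544 (chr5:24003494-24004042). LUX lay slightly above BOA in each replicate. ELF4 held 533, 321 and 348 tags and ELF3 377, 265 and 242, with the folds of ELF4 at 5.44, 4.87 and 5.53. LUX and BOA exceeded ELF4 and ELF3 in every replicate.

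GI had the highest site of the clock list and the 97th highest of all consensus sites. GI encodes a large protein of the clock and of flowering time, and its site lay at 500 to 1500 bp from the gene (chr1:8060553-8061101). It held 1251, 862 and 916 tags over 68, 50 and 53 mock tags, folds of 12.4, 11.6 and 11.6. Its partners are the blue light receptors of the ZTL family, which are F-box proteins. FKF1 held 768, 536 and 540 tags, LKP2 135, 95.3 and 99.3, and ZTL had no site within 10614 bp. LNK genes encode coactivators that work with REVEILLE factors. LNK3 held 920, 634 and 618 tags (chr3:3923143-3923691), LNK4 held 536, 374 and 353, and LNK1 366, 318 and 270. At LNK3 the mock had 40 tags in the wide window and 14 and 17 in the narrow ones, and at LNK4 35, 12 and 13, so their folds in replicates 2 and 3 (28.9 and 23.5 at LNK3, 19.7 and 17.3 at LNK4) exceeded those in replicate 1 (15.4 and 10.2). LWD2, of a pair of WD40 proteins, with its site inside AT3G26630, held 197, 126 and 140 tags, and TIC, a clock gene whose site was not called in replicate 2, 171 in replicate 1 and 114 in replicate 3.

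Phytochrome signalling genes had a site at 10 of 19 (52.6%, against 26.4% of all protein-coding genes). Phytochromes are the red and far-red photoreceptors. PHYB, the main one in red light, held 770, 477 and 482 tags in replicates 1, 2 and 3 over 39, 27 and 29 mock tags (chr2:8138282-8138830). This site lay 1191 bp from PHYB and within 500 bp of its other neighbour, AT2G18780. PHYC held 472, 251 and 276 over 26, 10 and 10. PHYA and PHYD had no peak in replicate 1, with 155 and 139 tags at PHYA and 138 and 135 at PHYD in replicates 2 and 3, and PHYE had no site. PHYB lay above the other phytochrome genes in tags in every replicate. In fold over the mock it led in replicate 1 alone. The folds were 13.17, 11.64 and 10.99 at PHYB against 11.96, 15.63 and 17.16 at PHYC in replicates 1, 2 and 3.

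The PIF genes encode bHLH factors that interact with phytochromes, and 4 of the 7 listed had a site. PIF5 held 517, 328 and 334 tags in replicates 1, 2 and 3, PIF6 349, 221 and 234, PIF4 229, 173 and 169, and PIF7 224, 155 and 157. PIF5 led in tags in each replicate, and PIF4 lay above PIF7. In fold over the mock PIF6 exceeded PIF5 in each replicate, and PIF7 exceeded PIF4 in replicates 2 and 3. PIF1 and PIF3 had no site, and PIF8 (AT4G00050) had a peak in 1 list. FHY1, which carries phytochrome A into the nucleus, held 310, 202 and 183 tags at a site inside the neighbouring gene AT2G37670. Its paralogue FHL had a peak in 1 list. PKS1, a phytochrome kinase substrate, held 285, 225 and 210 tags over 48, 24 and 24 mock tags. FHY3, FAR1, HFR1 and LAF1 had no site, although that of HFR1 missed the window by 4 bp at 1504 bp.

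The repressors of light signalling had a site at 4 of 6 genes (66.7%, against 26.4% of all protein-coding genes). SPA1, a partner of COP1 in the ligase that marks HY5 for degradation, had the 44th highest of all sites (chr2:19027653-19028201), with 1785, 1028 and 1209 tags in replicates 1, 2 and 3 over 103, 84 and 84 mock tags. SPA3 held 762, 510 and 538 tags, COP1 itself 376, 250 and 284 (chr2:13977546-13978094), and SPA4 312, 203 and 207. The order of tags, SPA1, SPA3, COP1, SPA4, was the same in every replicate. The folds over the mock were 11.7, 8.27 and 9.73 at SPA1 but 5.59, 4.63 and 5.24 at COP1. SPA2 had no site and DET1 a peak in 1 list.

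Of HY5, HYH and the B-box factors, 8 of 13 genes (61.5%, against 26.4% of all protein-coding genes) had a site. HYH, the closest relative of HY5, held 408, 275 and 288 tags over 26, 23 and 23 mock tags (chr3:6023479-6024027), far below the site of HY5. The B-box proteins are zinc finger partners of HY5. BBX28 held 683, 570 and 507 tags in replicates 1, 2 and 3 (chr4:13674829-13675377), BBX24 652, 444 and 373, and BBX29 487, 357 and 400. BBX28 led in tags in each replicate, while BBX24 and BBX29 changed places between replicates 2 and 3. The folds over the mock were 10.4, 9.29 and 8.07 at BBX28, 10.1, 9.79 and 8.22 at BBX24 and 10.1, 10.2 and 11.4 at BBX29. BBX28 thus did not lead in fold in replicates 2 and 3. BBX31 held 232, 147 and 130 tags. BBX21 and BBX32 had no peak in replicate 1, with 141 and 146 tags at BBX21 and 135 and 167 at BBX32. BBX20, BBX22, BBX23 and BBX25 had no site, and BBX30 had a peak in 1 list.

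Flavonoid synthesis genes had a site at 10 of 18 (55.6%, against 26.4% of all protein-coding genes). F3H, an enzyme gene of the early pathway (chr3:19024690-19025238), held 1812, 1161 and 1232 tags in replicates 1, 2 and 3 over 75, 45 and 41 mock tags. MYB12 and MYB11, genes of MYB factors of flavonol synthesis, came next. MYB12 held 1260, 1045 and 1001 tags (chr2:19475898-19476446). MYB11, whose site lay inside the neighbouring gene ATERDJ3B, held 988, 730 and 717. FLS1, the flavonol synthase gene, held 747, 534 and 544. CHS, which encodes the first enzyme of the pathway, held 478, 310 and 287. The other 5 genes with a site, DFR, LDOX, UGT78D2, PAL1 and UGT79B1, had lower ones. At TT7 and 4CL3 a consensus site lay inside the gene but more than 500 bp from its ends, so neither counts. PAP1, the anthocyanin MYB gene, had no site within 2503 bp. MYB111, another MYB gene of the list, had none within 11154 bp, and CHI, UGT78D1, PAP2 and C4H had no site.

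Genes of chlorophyll, carotenoid and plastid functions had a site at 10 of 16 (62.5%, against 26.4% of all protein-coding genes). FC1 and SIG5 were among the 20 highest of all sites. ELIP1, an early light-induced protein of the thylakoids, held 1053, 543 and 559 tags in replicates 1, 2 and 3 over 97, 70 and 67 mock tags (chr3:8085984-8086532). PSY, which encodes the first enzyme of carotenoid synthesis, held 712, 495 and 485 over 33, 22 and 25 (chr5:5663960-5664508). ELIP1 exceeded PSY in tags, but the fold at PSY was 14.3, 14.7 and 12.8 against 7.35, 5.23 and 5.62 at ELIP1. Lower sites lay at PORC, CAO, GUN5, ELIP2, HEMA1 and PORB, while PORA, CHLM and GLK2 had none and GUN4, CRD1 and GLK1 had a peak in 1 list.

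The antenna and Rubisco list, with a site at 6 of 19 genes (31.6%), lay near the 26.4% of all genes. It had 3 (15.8%) without replicate 2 or in all 3 lists, below the 20.1% and 19.5% of all genes. When an 8-fold excess was required it had 1 (5.26%), against 9.85% of all genes. LHCA4, of the antenna of photosystem I, had 389, 251 and 293 tags, and LHCB4.1, of the minor antenna of photosystem II, 402, 265 and 236. LHCB1.4 and LHCB1.5 are near-identical neighbours and share 1 site, with 276 tags in replicate 1, 202 in replicate 2 and no peak in replicate 3. This site lay 131 bp from LHCB1.4 and 907 bp from LHCB1.5 and counts for both, and which gene it acts on was not tested. None of the 4 RBCS genes, which encode the small subunit of Rubisco, had a site or a peak in 1 list.

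Elongation and hormone genes had a site at 7 of 13 (53.8%, against 26.4% of all protein-coding genes). IAA29, an auxin response repressor gene (chr4:15585337-15585885), held 1188, 858 and 916 tags in replicates 1, 2 and 3 over 53, 38 and 38 mock tags, with the centre of the site in the next gene AT4G32285. ABI5, a bZIP gene of abscisic acid responses, held 546, 361 and 336 tags. PAR2, a small bHLH gene of shade responses, followed with 280, 183 and 197 tags. IAA19 held 271, 193 and 187 tags at a site inside the neighbouring gene AT3G15548. IAA29 stood above the other genes of the list in every replicate.

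Cold response genes had a site at 4 of 8, and at 2 without replicate 2, without replicate 3 or in all 3 lists. The CBF genes are 3 neighbouring copies of a transcription factor gene of cold acclimation. CBF3 held 1114, 714 and 736 tags in replicates 1, 2 and 3 over 89, 73 and 73 mock tags (chr4:13018946-13019494), and CBF1 332 and 312 in replicates 2 and 3 over 9 and 9, with no peak in replicate 1. Their folds stood the other way round, at 6.60 and 6.80 for CBF3 and 22.7 and 21.3 for CBF1 in replicates 2 and 3. CBF2 had a peak in 1 list and no consensus site. No source used here says how reads shared by such copies were placed. COR47, a dehydrin gene, had 305 and 308 tags in replicates 2 and 3, and KIN1, whose site lies in its copy KIN2, 306, 185 and 164. Nitrate, sugar and copper genes had a site at 2 of 7 (28.6%), near the 26.4% of all protein-coding genes. They had 1 (14.3%) without replicate 1 or without replicate 3, against 24.9% and 20.3% of all genes. They lay above the share of all genes under 4 of 13 settings. SPL7, a copper response factor gene, held 469, 285 and 282 tags at a site 860 bp away and within 500 bp of Cpn60alpha2. NIA2, a nitrate reductase gene, held 135 in replicate 1 and 88.3 in replicate 3.

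Genes of the control lists also carried high sites. CRA1, a seed storage protein gene, had the 77th highest of all sites (chr5:17755590-17756138), with 1419, 934 and 953 tags in replicates 1, 2 and 3 over 80, 62 and 62 mock tags. Seed genes had a site at 4 of 7 (57.1%, against 26.4% of all protein-coding genes). The others were OLEO1 (350, 217 and 206 tags, at a site inside the neighbouring gene PMSR4), EM1 (326, 191 and 201) and CRU3 (213 and 94.5, with no peak in replicate 3). With each site given to its nearest gene, 1 seed gene (14.3%) was left, against 17.7% of all genes. Housekeeping genes had one at 6 of 15 (40.0%). They were led by UBQ11, a polyubiquitin gene, with 772, 569 and 607 tags, then GAPC1 with 413, 303 and 284 and UBQ10 with 330, 276 and 231. Of the 10 floral organ genes, AP1 alone (10.0%) had a site, with 436, 329 and 299 tags. CRA1 and UBQ11 thus reached the height of GI and FKF1 of the clock list.

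Gene families, taken by the start of the symbol in the gene table, stood on both sides of the 26.4% of all genes. BBX genes had a site at 10 of 20, ERF genes at 12 of 24 and RPL genes at 9 of 22, and MYB genes at 26 of 120 (21.7%) and cytochrome P450 genes (CYP) at 40 of 229 (17.5%). These families kept their side of the share of all genes under all 13 settings tried. WRKY genes, at 22 of 67 (32.8%), lay above it, but with a window of 500 bp outside the gene they were at 16.4% against 18.4% of all genes. NAC genes were at 24 of 79 (30.4%), but at 7.59% against 9.85% with 8-fold peaks and at 24.1% against 24.9% without replicate 1. Genes named bZIP, at 5 of 30 (16.7%), and bHLH, at 3 of 13 (23.1%), turned to the other side when each site was given to its nearest gene, at 23.3% and 30.8% against 17.7% of all genes, and bHLH also with the window of 500 bp outside. WRKY41, a factor of defence, held 1527, 924 and 835 tags in replicates 1, 2 and 3, and WRKY33, another, 784, 518 and 496. CYP81G1 held 1349, 927 and 894. Among the bZIP genes, BZIP60 and BZIP28, which act in the unfolded protein response, led with 650, 470 and 492 and with 404, 289 and 317. NAC069 held 895, 576 and 640 tags. UGT85A3 and UGT85A5 share 1 site of 433, 296 and 220 tags. IAA genes had a site at 6 of 24 (25.0%), GSTU genes at 6 of 27 (22.2%) and UGT genes at 14 of 58 (24.1%), not far below the share of all genes. They lay above it under 6, 3 and 3 of the 13 settings. LHC genes had a site at 6 of 15 (40.0%) and lay above it under 12 settings. Symbols that begin with RPS had one at 5 of 24 (20.8%) and lay above it under 0, and RPS2 among them is a disease resistance gene. Leaving out a library lowered some counts. Without replicate 2 or without replicate 3, 6 UGT genes (10.3%) and 3 bZIP genes (10.0%) were left, against 20.1% and 20.3% of all genes. UGT genes thus fell well below the share of all genes there. Without replicate 3, 3 LHC genes (20.0%) and 3 RPS genes (12.5%) were left, against the same 20.3%. The symbols do not cover each family in full.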

How the data were processed

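Per the labels' protocols, sonicated chromatin from formaldehyde-fixed plants was captured on beads with an antibody against GFP, and libraries were amplified by PCR. Input DNA was not analysed here, and blue light lists were not used. Peaks were called in each library alone with findPeaks in its factor style against the mock, per the file headers, requiring 4 times the mock, 4 times the 10000 bp around the peak, a Poisson p-value no higher than 0.0001 and a false discovery rate of 0.001. HOMER was of version 4.9 and the build TAIR10, per the submitters' processing notes. No source used here names the aligner. The deposited signal is the tags of a peak scaled by the authors to 10 M tags, and the mock signal in the same window is unscaled, per the file headers. The lists also hold the authors' fold over the mock, a ratio used for a filter, the ratio over the surroundings, and the share of tags near the centre of a peak as a fraction, which was read but is not reported. Scaled back, 100% of the tags were whole within 0.1.

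Peaks were joined where they overlapped by at least 1 bp with Python 3.11.15, pandas 2.3.3 and numpy 2.4.6, correlations were computed with scipy 1.17.1 and figures drawn with matplotlib 3.10.9. A site's centre is the mean of its peak centres. The mock total, 6.84 M, is 10 M times the median ratio of unscaled to scaled values in the lists, and 1 pseudocount was added to mock tags. On simulated lists, 97.1% of 3000 sites came back as made, and 43 close pairs were joined. Gene names and neighbours come from RefSeq's table for TAIR10.1, which has no strand, and all 181 list loci were found in it. No promoter or genome sequence was used, so no motif was searched. The members and lists were chosen with earlier results of these data known. Genes were named by rule: the 20 highest sites, every clock, phytochrome, COP1/SPA/DET1 and HY5/B-box gene, the 4 highest of each other list, the 5 highest and lowest folds, the 5 highest mock values and the 5 sites at which replicates 2 and 3 differ most. Family examples, other list members and the sites at TT7 and 4CL3 were named after their values were seen. Alternatives covered the list rule, overlap, fold, list length, gene window, pseudocount and each library left out.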

Additional observations from a re-analysis of the deposited data

How the results depend on the processing

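No paired analysis was possible because the blue light lists were not used and the mock is 1 library, so no group shares replicate numbers with the red light libraries. Requiring peaks at least 8-fold over the mock left 1845 sites against 5043, 2703 genes against 7238, 38 genes of the 10 lists against 83, 7 control genes against 11, 41.8% of sites inside a gene and 73.6% within 500 bp of a gene end (42.5% and 75.4% otherwise). Giving each site to its nearest gene alone also left 7 control genes. The median over sites of the mean fold over the mock was 6.63. It was 5.52 with a pseudocount of 5, 7.0 with none, 7.0 by the authors' fold, 7.26 at sites of all 3 lists, and 6.85 to 7.11 with a library left out. At sites of all 3 lists, 42.0% lay inside a gene and 76.4% within 500 bp of a gene end. With equally long lists 41.8% lay inside a gene, and with sites called in either of replicates 2 and 3, 43.7%. With a library left out, the share within 500 bp of a gene end was 75.5% to 76.1%. Of 70 alternative values, the other 50 were within 1.5 times the count reported or, for a level or share, within the spread between replicates. Sites numbered 3691 to 4759 with a library left out, 3575 in all 3 lists and 6354 in either of replicates 2 and 3, and genes 4844 (nearest gene) to 10306 (a window of 3000 bp outside). Alternatives for location, the span's middle as centre and the rule of either of replicates 2 and 3 were chosen after seeing the data. The search for ACGT motifs in promoters was not run. For single lists 25 of 156 and for families 35 of 168 alternative counts moved by more than 1.5 times, and the report gives those that follow from 1 library. Low sites limit the map: the median fold of sites called in 1 list was 4.32 to 4.74.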
